A study of Homo sapiens and Mus musculus with 12 samples.

Results

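The enzymes that place and remove methyl groups on histones and DNA, and those that remove acetyl groups from histones, were followed through polysome profiles of 2 melanoma cell lines. Members were the rows of the A375 and Yumm1.7 expression tables whose symbol starts with KDM, KMT, HDAC or SETD or names EZH1, EZH2, a sirtuin, DNMT1, a DNMT3 gene, a TET gene or DOT1L, with antisense rows dropped. In A375 the rule found 66 of 16782 rows, after HDAC4-AS1, KMT2E-AS1, KDM4A-AS1 and the divergent transcripts KDM2B-DT and KDM7A-DT were dropped. The pseudogene rows EZH2P1, KMT2CP3 and KMT5AP2 were kept out of the counts, which left 63 enzyme genes. Of these, 61 averaged 1 TPM or more across the 6 A375 libraries and were compared, while KDM4D and TET1 were below that level. In Yumm1.7 the rule found 61 of 12711 rows after Kdm6bos was dropped, and 56 were compared, with Dnmt3b, Hdac9, Hdac11, Kdm6a and Tet2 below the level. There were 55 genes compared in both lines.

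A375 cells come from a human melanoma, and Yumm1.7 cells from a mouse one. Parental cells and drug-tolerant persister cells of each line were profiled, per the deposited design, but the labels call the states only P and S and name neither the drug nor which letter is which. Each state gave 1 input library, 1 polysome library from the bottom of the sucrose gradient and 1 monosome library from the single-ribosome peak and the lighter fractions before it, so the groups were S and P of A375 and S and P of Yumm1.7. No genotype, dose or time is given for any group. With 1 library per group no test was possible, no difference has a replicate check, and each value describes these 12 libraries.

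Methylation of histone lysines marks active or silent chromatin depending on the residue: H3K4 methylation lies at promoters and enhancers, H3K36 methylation over transcribed genes, and H3K9, H3K27 and H4K20 methylation mostly in silent regions. The marks are placed by SET domain methyltransferases and DOT1L and removed by the KDM demethylases. Deacetylases of the zinc-dependent HDAC classes and the NAD-dependent sirtuins remove acetyl groups from histones and many other proteins. DNA methyltransferases copy or set 5-methylcytosine, and TET dioxygenases oxidise it. Some of these enzymes, DNMT1 and EZH2 among them, are textbook examples of genes most active in dividing cells, and the H3K4 demethylase KDM5B has been linked to slow-cycling melanoma cells.

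The values are TPM, in which a gene's read density is scaled within its library, so levels of different genes can be compared per length. Read depth is unknown. The listed rows summed to between 66.6% and 94.4% of 1000000 TPM per library, and Yumm1.7 S input had 1581 rows listed at 0 against 316 in Yumm1.7 P input. All 10 proliferation markers were at least 2-fold lower in S input of both lines, with summed levels of 97.4 TPM in A375 S against 1612 TPM in A375 P, and 12.4 TPM in Yumm1.7 S against 996 TPM in Yumm1.7 P. The part of the proliferation markers in the differences below was not tested. Of the 8 melanocyte markers, 6 were listed in A375 (summed input level 864 TPM in S and 586 TPM in P, with SOX10 at 217 and 156 TPM). In Yumm1.7 4 were listed, at a summed input level of 0.571 TPM in S and 5.09 TPM in P. The markers listed for that line were thus at or near 0 in S input. In P input Mitf had 4.76 TPM and the others were at or near 0. Sox10, Tyr, Dct and Tyrp1 were not analysed here. In Yumm1.7 the smooth muscle markers summed to 877 TPM in S input and 6.43 TPM in P input, and the fibroblast markers to 193 and 232 TPM. Most of the fibroblast sum was Pdpn in P, with 67.3 TPM in S and 214 TPM in P input, whereas 4 of the 5 fibroblast markers compared were at least 2-fold higher in S and none lower. Col1a2, for example, had 74.1 TPM in S and 12.4 TPM in P input (3.42 on the log2 scale used below), and Dpt had 35.2 and 0.926 TPM (5.17). The part of these markers in the Yumm1.7 differences was not tested. In bulk RNA, a change in the number of cells of a kind and a change in RNA per cell cannot be told apart.

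In input RNA, most of the enzymes lay within 2-fold of the median gene, 48 of 61 in A375 and 32 of 56 in Yumm1.7. The most negative differences were those of EZH2 in A375 and Dnmt1 in Yumm1.7, and the most positive those of HDAC5 in A375 and Kdm4b in Yumm1.7. Differences are S minus P of log2(TPM + 1), given relative to the median gene, because the median itself stood at -0.20 for A375 and -0.94 for Yumm1.7. In A375, 8 of 61 members were at least 2-fold higher, where 15.6% of all 12638 genes compared were, and 5 were at least 2-fold lower, where 16.2% of all genes were. In Yumm1.7, 11 of 56 were higher against 23.1% of 10492 genes, and 13 were lower against 22.3%. As shares of the members these are 13.1% higher and 8.20% lower in A375, and 19.6% and 23.2% in Yumm1.7, with medians of -0.07 and -0.26. These shares are near the all-gene shares or below them, but they were not matched for level. In Yumm1.7 input the median enzyme gene had 2.03 TPM in S and 5.22 TPM in P. The median gene compared had 5.93 and 13.5 TPM. In A375 input these were 7.89 and 11.5 TPM against 11.7 and 14.5 TPM. The log2(TPM + 1) scale understates the difference of low genes. On the TPM as deposited, 4 members were higher and 7 lower in A375 (11.9% and 20.9% of all genes), and 3 were higher and 30 lower in Yumm1.7 (8.94% and 48.1%).

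**Figure D1:**
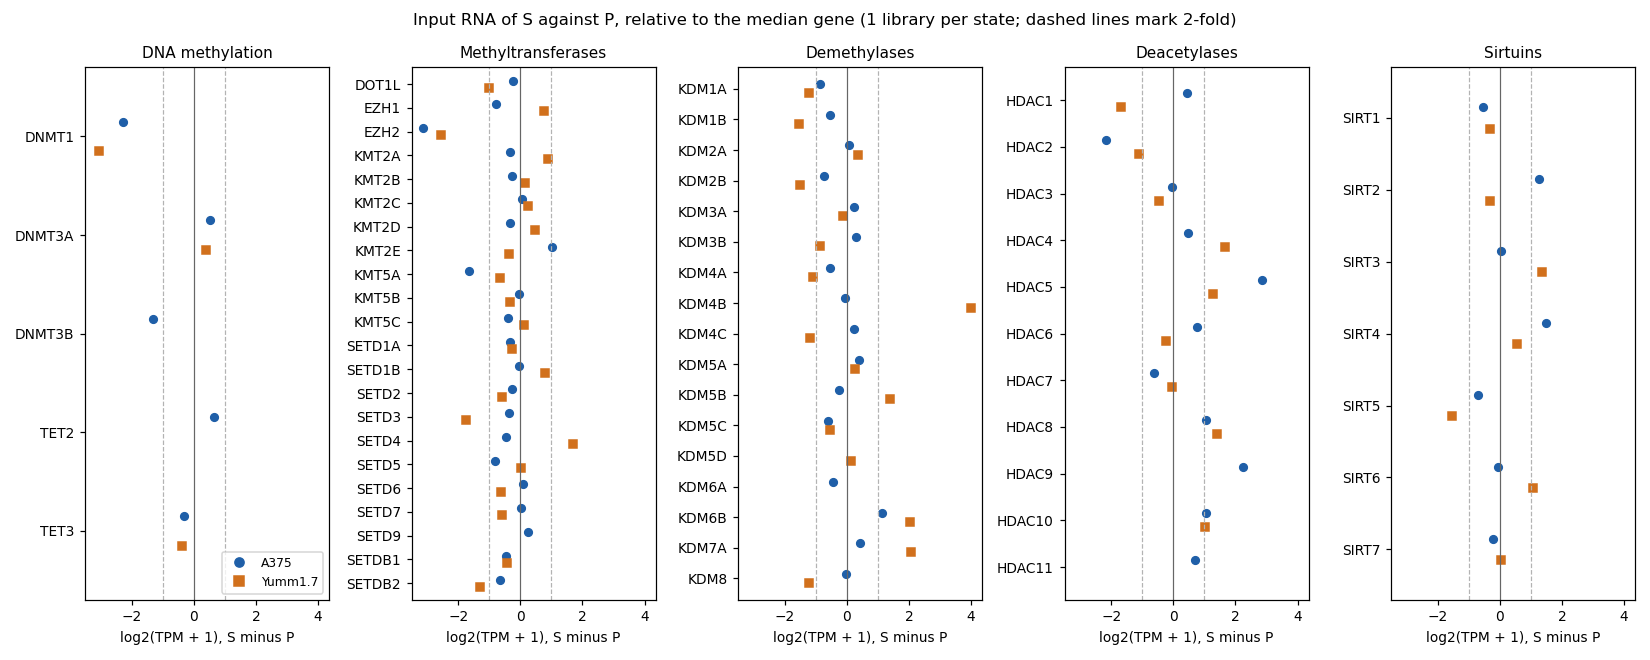
S minus P difference of log2(TPM + 1) in input RNA for each member compared, relative to the median gene of its line, by enzyme class, with circles for A375 and squares for Yumm1.7 and 1 library per state. DNMT1, EZH2 and HDAC2 lie left of the lower 2-fold line in both lines, and HDAC5, HDAC8, HDAC10 and KDM6B right of the upper one.

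Of the DNA methyltransferases, DNMT1, which copies methylation onto new DNA strands, was at least 2-fold lower in S input of both lines. Relative to the median gene, the de novo enzyme DNMT3A was not. In A375, DNMT1 had 12.7 TPM in input, 36.5 TPM in polysomes and 7.77 TPM in monosomes of S, against 75.7, 117 and 5.32 TPM in P (input -2.29 relative to the median gene). Dnmt1 of Yumm1.7 had 1.12 TPM in input, 4.38 in polysomes and 5.32 in monosomes of S, against 33.0, 52.0 and 6.73 TPM in P (-3.07). Input and polysome values were thus lower in S in both lines, while the monosome value was higher in S of A375 and lower in S of Yumm1.7. DNMT3A stood at 3.64 TPM in A375 S input and 2.75 TPM in P input (0.51), and Dnmt3a at 0.687 and 1.44 TPM in Yumm1.7 (0.41). The Dnmt3a value is positive only relative to the median gene, as it was -0.53 as deposited. DNMT3B, the other de novo enzyme, had 0.381 TPM in A375 S input against 2.98 TPM in P (-1.33), and Dnmt3b was listed at 0 in all 3 Yumm1.7 S libraries, with 0.156 to 0.483 TPM in P. The TET dioxygenases were low in every library. TET2 and TET3 had between 0.888 and 6.12 TPM over the A375 libraries and lay within 2-fold of the median gene in input (0.64 and -0.31). TET1 had 0.211 TPM in A375 S input and 1.23 TPM in P. Tet2 had 0.0255 TPM in Yumm1.7 S input, against 1.37 TPM in P, below the level needed for a comparison, and Tet3 had 0.275 and 2.17 TPM (-0.38).

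EZH2, the main catalytic subunit of the H3K27 methyltransferase PRC2, had the most negative input difference of the A375 members, and its paralog EZH1, which is less tied to dividing cells, was nearer to the median gene. EZH2 had 5.38 TPM in input, 9.87 TPM in polysomes and 5.79 TPM in monosomes of A375 S, against 63.6, 71.1 and 12.3 TPM in P (input -3.14). Ezh2 had 0.787, 2.13 and 2.93 TPM in the same fractions of Yumm1.7 S, against 18.9, 42.3 and 10.8 TPM in P (-2.54). It was lower in S in every fraction of both lines. EZH1 had 7.31 TPM in A375 S input and 15.5 TPM in P (-0.79), and Ezh1 had 2.58 and 3.02 TPM in Yumm1.7 (0.77). As a share of the summed EZH1 and EZH2 level, which does not depend on the scaling of a library, EZH1 made up 57.6% in A375 S input against 19.6% in P, and 76.7% in Yumm1.7 S input against 13.8% in P. The polysome shares were 46.6% in S and 13.6% in P of A375, and 53.7% and 11.6% in Yumm1.7. EZH1 thus held about as much or more of the pair than EZH2 in S and far less in P, in all fractions.

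The promoters of DNMT1, EZH2 and HDAC2 are printed because these members were at least 2-fold lower in input of both lines, and that of EZH1 because it was not. RefSeq promoter windows (build GRCh38.p14, 300 bases around the annotated start) were found for 59 of the 63 A375 genes, 95 windows in all. Capitals mark matches to the E2F-type words TTTCCCGC, TTTCGCGC, TTTGCCGC and TTTGGCGC on either strand, which 3.31% of all 35116 windows hold.
DNMT1, chr19:10194904-10195203, minus strand: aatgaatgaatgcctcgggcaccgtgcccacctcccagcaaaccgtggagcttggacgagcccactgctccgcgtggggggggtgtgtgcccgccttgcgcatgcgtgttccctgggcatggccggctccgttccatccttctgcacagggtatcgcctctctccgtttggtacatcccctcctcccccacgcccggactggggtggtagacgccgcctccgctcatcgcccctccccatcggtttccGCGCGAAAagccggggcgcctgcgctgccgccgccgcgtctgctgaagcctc
EZH2, chr7:148884242-148884541, minus strand: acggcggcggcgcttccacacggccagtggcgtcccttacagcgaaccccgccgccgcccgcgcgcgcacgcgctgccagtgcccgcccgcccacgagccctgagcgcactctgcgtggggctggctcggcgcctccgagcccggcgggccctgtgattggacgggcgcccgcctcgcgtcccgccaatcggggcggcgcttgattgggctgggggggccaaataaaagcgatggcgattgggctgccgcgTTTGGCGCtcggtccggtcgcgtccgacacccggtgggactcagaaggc
EZH1, chr17:42744991-42745290, minus strand: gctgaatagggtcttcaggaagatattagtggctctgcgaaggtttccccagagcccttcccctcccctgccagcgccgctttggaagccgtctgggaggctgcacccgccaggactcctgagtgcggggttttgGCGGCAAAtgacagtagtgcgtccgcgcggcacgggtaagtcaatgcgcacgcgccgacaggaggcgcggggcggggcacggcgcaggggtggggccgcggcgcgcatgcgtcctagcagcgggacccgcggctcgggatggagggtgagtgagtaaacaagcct
HDAC2, chr6:113971099-113971398, minus strand: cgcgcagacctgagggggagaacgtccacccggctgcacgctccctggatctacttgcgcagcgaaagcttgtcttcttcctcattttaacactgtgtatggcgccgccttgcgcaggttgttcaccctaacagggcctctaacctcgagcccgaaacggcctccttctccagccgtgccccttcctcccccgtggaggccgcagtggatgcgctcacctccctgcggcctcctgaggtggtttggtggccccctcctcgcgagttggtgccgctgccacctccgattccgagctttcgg
Counted from the start site as 0, the match begins at position -2 in DNMT1, at position 1 in EZH2 and at position -115 in EZH1, and the HDAC2 window has none. EZH1 lay within 2-fold of the median gene in input of both lines (-0.79 in A375 and 0.77 in Yumm1.7). On the TPM as deposited it was lower in A375 S input (7.31 TPM against 15.5 TPM in P). Any part of these matches in the differences was not tested. A second EZH2 window, at chr7:148883436-148883735, has none. Among the members, 5 of 95 windows (5.26%) hold a match, the others being in KDM1B and SIRT6. The EZH2 window also holds 4 copies of CCAAT, counted on both strands, where 34.6% of all windows hold at least 1, and the DNMT1 and HDAC2 windows hold none. A match is a stretch of letters, not a measured site.

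Other histone methyltransferases were mostly within 2-fold of the median gene in input. Without EZH1 and EZH2, 1 of 20 was higher and 1 lower in A375 (15.6% and 16.2% of all genes), and 1 of 19 was higher and 2 lower in Yumm1.7 (23.1% and 22.3% of all genes). KMT5A, the H4K20 monomethyltransferase whose protein peaks around mitosis, had 11.9 TPM in input, 10.3 TPM in polysomes and 9.81 TPM in monosomes of A375 S, against 45.7, 39.6 and 30.6 TPM in P (-1.66). Kmt5a, the member with the highest mean TPM in its Yumm1.7 class, had 42.6, 16.0 and 19.4 TPM in S, against 131, 98.8 and 193 TPM in P (-0.66). It was lower in S in each fraction of both lines on the TPM as deposited, and past 2-fold relative to the median gene in polysomes of both (-1.64 and -1.02). KMT5A made up 37.2% of the summed KMT5A, KMT5B and KMT5C level in A375 S input and 64.0% in P. In Yumm1.7 input the Kmt5a share was 87.8% in S and 90.7% in P. The pseudogene row KMT5AP2 had between 0.137 and 3.35 TPM in A375, so reads of KMT5A may be split with it.

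The H3K4 methyltransferases of A375 lay within 2-fold of the median gene in input except KMT2E, which binds methylated H3K4 through its PHD finger and whose SET domain is thought to be catalytically inactive. KMT2E had 14.1 TPM in input, 28.4 TPM in polysomes and 17.3 TPM in monosomes of A375 S, against 7.50, 5.67 and 2.41 TPM in P (input 1.02, polysome 2.35). In Yumm1.7, Kmt2e had 0.902, 1.75 and 2.26 TPM in S against 3.66, 6.13 and 4.70 TPM in P, with an input difference of -0.36. The other 7 H3K4 enzymes of A375 lay between -0.34 and 0.07 in input, and the 8 of Yumm1.7 between -0.59 and 0.89. KMT2C had 15.4 TPM in A375 S monosomes against 2.80 TPM in P monosomes, with 10.5 and 11.6 TPM in input and 12.8 and 11.8 TPM in polysomes. Setd1a had 3.75, 2.03 and 5.997 TPM in input, polysomes and monosomes of Yumm1.7 S, against 10.02, 16.7 and 2.79 TPM in P (input -0.28, polysome -1.02).

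SETD2, which trimethylates H3K36, had 8.28 TPM in input, 16.9 TPM in polysomes and 6.45 TPM in monosomes of A375 S, against 11.9, 13.5 and 1.45 TPM in P (input -0.28). Setd2 had 3.48, 0.954 and 1.76 TPM in Yumm1.7 S, against 11.8, 19.1 and 3.21 TPM in P (input -0.57, polysome -1.83). Its polysome level was therefore higher in S in A375 and lower in S in Yumm1.7. The H3K79 methyltransferase DOT1L was within 2-fold in A375 input (-0.22), and Dot1l was at -0.997 in Yumm1.7 input, just inside 2-fold. The H3K9 methyltransferase SETDB1 was at -0.45 and Setdb1 at -0.44, whereas Setdb2 had 0.0341 TPM in Yumm1.7 S input and 3.87 TPM in P (-1.30). SETD3, which methylates actin and had the highest mean TPM of the A375 methyltransferases, had 27.2 TPM in input, 34.7 TPM in polysomes and 17.4 TPM in monosomes of S, against 40.8, 52.7 and 17.2 TPM in P (-0.37). Setd3 had 5.76, 11.2 and 17.1 TPM in Yumm1.7 S, against 42.6, 88.1 and 30.1 TPM in P (-1.75). Setd4 was the only methyltransferase member at least 2-fold higher in Yumm1.7 input relative to the median gene, with 5.58 TPM in S and 2.85 TPM in P (1.71). Setd5 had 6.95, 3.42 and 12.7 TPM in input, polysomes and monosomes of Yumm1.7 S, against 13.8, 23.9 and 9.88 TPM in P (input 0.04).

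Most histone demethylases of A375 lay within 2-fold of the median gene, while those of Yumm1.7 included members past 2-fold in both directions. In A375 input, 1 of 16 was higher and none was lower (15.6% and 16.2% of all genes), and in Yumm1.7 4 of 16 were higher and 6 lower (23.1% and 22.3% of all genes). KDM1A, the flavin-dependent H3K4 demethylase also called LSD1, had the highest mean TPM of the A375 demethylases, with 40.9 TPM in input, 62.8 TPM in polysomes and 15.6 TPM in monosomes of S, against 86.6, 139 and 13.6 TPM in P (-0.87). Kdm1a had 1.71, 5.10 and 5.78 TPM in Yumm1.7 S, against 11.2, 32.6 and 4.57 TPM in P (-1.23). Both lines thus had less KDM1A in S input and polysomes and slightly more in S monosomes. The related KDM1B had 6.60, 7.07 and 3.99 TPM in A375 S, against 11.6, 17.8 and 4.01 TPM in P (input -0.53, polysome -1.01). Kdm1b was listed at 0 in Yumm1.7 S input, with 0.0859 TPM in polysomes and 2.48 TPM in monosomes of S, against 4.51, 5.82 and 21.3 TPM in P (input -1.53).

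Kdm4b, an H3K9 demethylase of the JmjC family, had the largest positive difference of the Yumm1.7 members. It had 33.3 TPM in input, 23.0 TPM in polysomes and 27.7 TPM in monosomes of S, against 3.10, 4.42 and 1.26 TPM in P (input 3.999, polysome 3.68). All 3 S values lay above all 3 P values. Its paralog Kdm4a had 4.02, 7.90 and 16.8 TPM in Yumm1.7 S, against 19.3, 33.6 and 8.9999 TPM in P (-1.08), and Kdm4c was listed at 0 in S input against 3.30 TPM in P (-1.17). Kdm4b therefore made up 89.2% of the summed Kdm4a, Kdm4b and Kdm4c level in Yumm1.7 S input and 12.1% in P input. In A375 that share was 20.8% in S and 18.3% in P, and KDM4B had 4.24 and 5.30 TPM in input (-0.07).

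KDM6B, an H3K27 demethylase induced by many stimuli, was higher in S input of both lines. It had 7.03 TPM in A375 S input and 3.19 TPM in P (1.14), with 5.16 and 5.14 TPM in polysomes. Kdm6b had 19.97 TPM in input, 4.70 TPM in polysomes and 34.3 TPM in monosomes of Yumm1.7 S, against 8.87, 8.80 and 3.99 TPM in P (2.02). The higher input level was thus not matched by a higher polysome level on the TPM as deposited. Relative to the median gene, the polysome differences were 0.21 in A375 and 0.75 in Yumm1.7, smaller than those of input. KDM5B, the H3K4 demethylase linked to slow-cycling melanoma cells, had 10.4, 13.2 and 10.1 TPM in input, polysomes and monosomes of A375 S, against 14.6, 18.4 and 4.00 TPM in P, an input difference of -0.25. Kdm5b had 4.22, 1.85 and 6.65 TPM in Yumm1.7 S, against 2.85, 5.25 and 2.38 TPM in P (1.37). In input KDM5B was thus lower in S of A375 and higher in S of Yumm1.7 on the TPM as deposited, and in monosomes it was higher in S of both. Kdm7a (5.68 TPM in S and 2.03 TPM in P, 2.08) was also higher in Yumm1.7 input. Kdm2b (0.254 and 5.84 TPM, -1.51) and Kdm8 (listed at 0 and 3.47 TPM, -1.23) were lower.

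**Figure D2:**
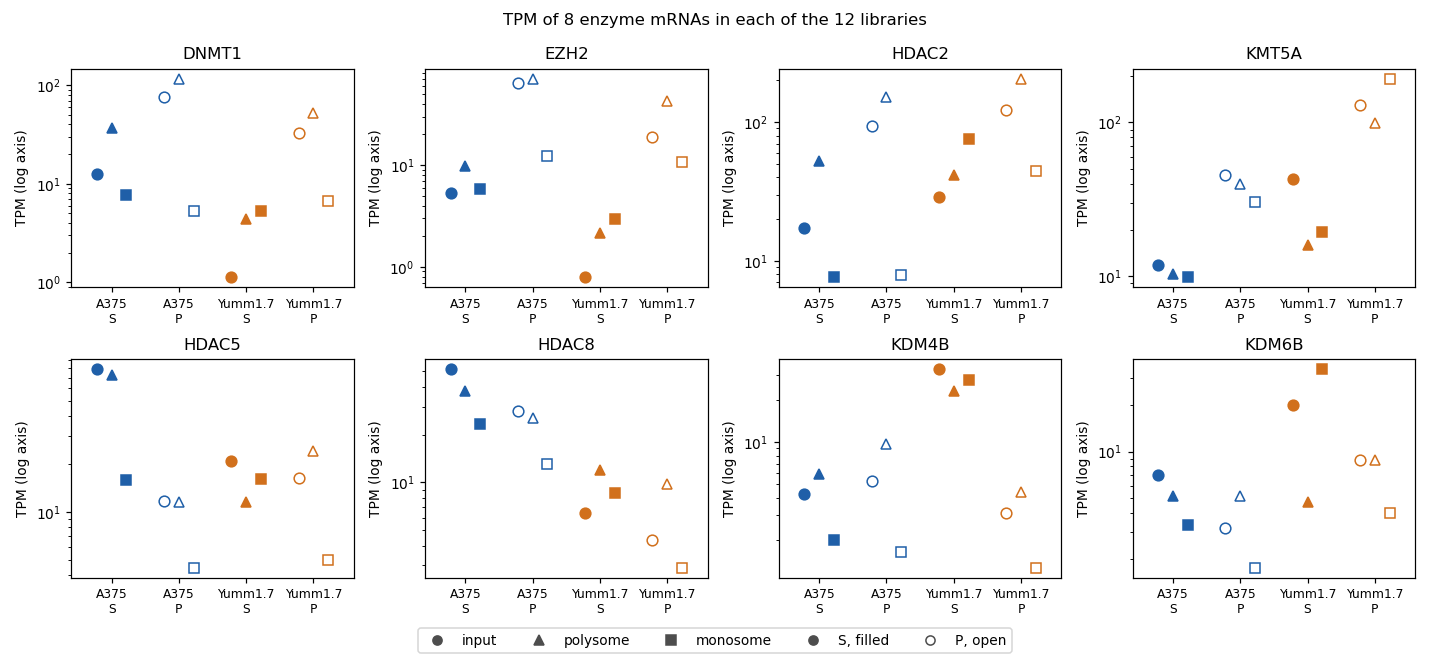
TPM of 8 member mRNAs on log axes in each of the 12 libraries, with filled symbols for S and open ones for P, blue for A375 and orange for Yumm1.7, and circles, triangles and squares for input, polysome and monosome. EZH2 is lower in S in every fraction of both lines, HDAC5 is higher in S in every fraction of A375, and KDM4B is higher in S in every fraction of Yumm1.7 only.

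Among zinc-dependent deacetylases, HDAC2 was lower and HDAC5 and HDAC8 higher in S input of both lines. In A375, 4 of 11 were higher and 1 was lower (15.6% and 16.2% of all genes), and in Yumm1.7 4 of 9 were higher and 2 lower (23.1% and 22.3% of all genes). HDAC1, the class I enzyme of the SIN3, NuRD and CoREST corepressors, had the highest level of all members in each A375 library, with 204 TPM in input, 430 TPM in polysomes and 86.4 TPM in monosomes of S, against 173, 313 and 47.5 TPM in P (0.43). Hdac1 had 7.70, 12.6 and 14.3 TPM in Yumm1.7 S, against 52.1, 149 and 38.2 TPM in P (-1.67). HDAC1 was thus higher in S in all 3 fractions of A375 and lower in S in all 3 of Yumm1.7. HDAC2, its close paralog, had 17.4, 52.6 and 7.61 TPM in A375 S, against 93.3, 152 and 7.96 TPM in P (-2.16). Hdac2, the member with the highest mean TPM in Yumm1.7, had 29.0, 41.7 and 75.2 TPM in S, against 121, 206 and 44.7 TPM in P (-1.09). As a result HDAC2 made up 5.36% of the summed class I level in A375 S input and 26.3% in P, while in Yumm1.7 its share was 47.5% in S and 53.4% in P. HDAC3 (-0.05) and Hdac3 (-0.48) stayed near the median gene. HDAC8 had 51.9, 37.7 and 23.2 TPM in input, polysomes and monosomes of A375 S, against 28.3, 25.4 and 13.1 TPM in P (1.05), and Hdac8 had 6.40, 11.9 and 8.60 TPM in Yumm1.7 S, against 4.35, 9.70 and 2.90 TPM in P (1.40). HDAC8 was higher in S in every fraction of both lines.

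HDAC5, a class IIa enzyme that shuttles between nucleus and cytoplasm and represses MEF2 targets, had the largest positive difference of the A375 members. It had 79.4 TPM in input, 73.2 TPM in polysomes and 16.0 TPM in monosomes of S, against 11.7, 11.6 and 4.44 TPM in P (input 2.86, polysome 2.77). Hdac5 had 20.8, 11.5 and 16.0 TPM in Yumm1.7 S, against 16.3, 24.3 and 5.00 TPM in P (input 1.27, polysome 0.52), a difference in input that came mostly from the shift of the median gene (0.33 as deposited). HDAC9 had 9.26 TPM in A375 S input against 1.49 TPM in P (2.24), and Hdac4 had 5.04 TPM in Yumm1.7 S input against 2.67 TPM in P (1.65), while HDAC7 was at -0.61 and Hdac7 at -0.03. Hdac7 had 11.1, 18.0 and 28.3 TPM in input, polysomes and monosomes of Yumm1.7 S, against 22.7, 17.6 and 7.89 TPM in P (polysome 1.56). Class IIa enzymes together made up 23.7% of the summed class I and IIa level in A375 S input against 7.68% in P, and 38.1% in Yumm1.7 S input against 15.5% in P. In polysomes the shares were 13.3% in S and 5.14% in P of A375, and 26.3% and 9.15% in Yumm1.7. The share was higher in S in all 3 fractions of both lines. Of the class IIb enzymes, the tubulin deacetylase HDAC6 had 7.90, 16.0 and 1.69 TPM in A375 S, against 5.07, 5.66 and 1.41 TPM in P (input 0.75, polysome 1.56), and HDAC10 had 14.6, 17.3 and 3.83 TPM against 7.66, 8.39 and 2.73 TPM (input 1.05). Hdac10 was also counted as higher in Yumm1.7 input (1.01), but with 4.96 TPM in S and 4.66 TPM in P its deposited levels were close.

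**Figure D3:**
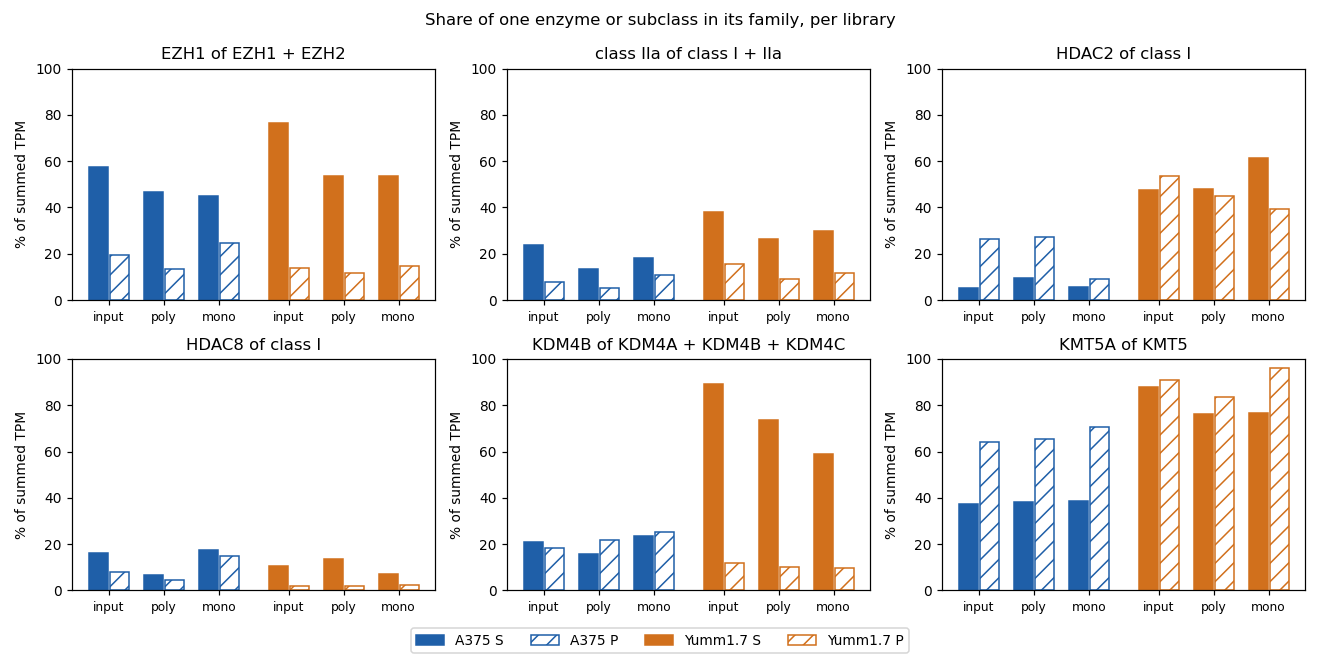
Share (%) of 1 enzyme or subclass in the summed TPM of its family, in input, polysome and monosome libraries, with solid bars for S and hatched bars for P of A375 (blue) and Yumm1.7 (orange). The EZH1 and class IIa shares are higher in S in every fraction of both lines, and the KDM4B share is higher in S in Yumm1.7, at 89.2% against 12.1% in input.

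Sirtuins showed no common direction. SIRT2, the mainly cytoplasmic sirtuin, had 48.5 TPM in input, 44.2 TPM in polysomes and 17.1 TPM in monosomes of A375 S, against 22.9, 18.8 and 8.14 TPM in P (1.25), and made up 39.7% of the summed sirtuin level in S input and 19.4% in P. Sirt2 had 13.3, 13.6 and 26.0 TPM in Yumm1.7 S, against 33.0, 61.7 and 37.9 TPM in P (-0.31). Its share of the sirtuin level went the other way, at 21.6% in Yumm1.7 S input and 33.9% in P. SIRT4, a mitochondrial sirtuin, had 3.12 TPM in A375 S input against 0.690 TPM in P (1.48). The nuclear enzyme SIRT1 was at -0.53 in A375 and Sirt1 at -0.33 in Yumm1.7. Sirt3, the main mitochondrial deacetylase, had 10.5, 7.53 and 5.87 TPM in input, polysomes and monosomes of Yumm1.7 S, against 7.59, 9.84 and 4.48 TPM in P (input 1.35). The chromatin-bound Sirt6 had 22.1, 18.2 and 43.1 TPM in Yumm1.7 S, against 20.2, 24.8 and 7.63 TPM in P (input 1.05). Sirt5 was the only sirtuin at least 2-fold lower in Yumm1.7 input relative to the median gene, with 0.295 TPM in S and 6.19 TPM in P (-1.54). SIRT7 was the most abundant A375 sirtuin by its mean, at 27.4, 40.7 and 7.72 TPM in S, against 37.3, 41.2 and 14.5 TPM in P (-0.23).

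Polysome RNA was compared in the same way. In A375, 7 members were at least 2-fold higher in S polysomes and 8 lower, where 16.5% and 15.6% of all genes were, and in Yumm1.7 7 were higher and 13 lower, where 24.1% and 22.5% of all genes were. As deposited, the counts were 6 higher and 12 lower in A375 (12.5% and 20.6% of all genes), and 2 higher and 44 lower in Yumm1.7 (5.28% and 65.1%). The lowest were EZH2 (-2.52), DNMT3B (-1.69) and KMT5A in A375, and Ezh2 (-2.26), Hdac1 (-1.93) and Setd2 in Yumm1.7. The highest were HDAC5, KMT2E and SIRT4 (1.62) in A375, and Kdm4b, Setd4 (2.57) and Hdac8 (1.80) in Yumm1.7.

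The lines were compared gene by gene over the 55 members compared in both. In input RNA, DNMT1, EZH2 and HDAC2 were at least 2-fold lower in both, 3 of 55 members (5.45%), against 7.89% of 8522 shared genes. They were 75.0% of the 4 such members of A375 and 23.1% of the 13 of Yumm1.7. HDAC5, HDAC8, HDAC10 and KDM6B were higher in both, 4 of 55 members (7.27%), against 6.56% of shared genes. They were 57.1% of the 7 such members of A375 and 36.4% of the 11 of Yumm1.7. Both shares of the members are near those of all shared genes. No member was past 2-fold in opposite directions. Across the 55 members the differences had a Pearson r of 0.51 and a Spearman rho of 0.47, and 34 had the same sign. In polysomes, DNMT1, EZH2, KDM1B and KMT5A were lower in both (7.27% of members, 7.82% of shared genes) and HDAC10 was higher in both (1.82% of members, 6.97% of shared genes), with an r of 0.27. Each r describes points that share their libraries.

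The polysome libraries were also set against the monosome libraries within each state, which shows how far along the gradient an mRNA sedimented. In S of A375, 13 members were at least 2-fold higher in polysomes than the median gene and 4 lower, where 20.8% and 16.7% of all genes were, and in P 14 were higher and 1 lower, where 19.1% and 20.8% of all genes were. In S of Yumm1.7, 1 was higher and 6 lower (13.2% and 10.9% of all genes), and in P 10 were higher and 4 lower (14% and 13.4%). As deposited, 31 members were higher and 1 lower in S and 43 and 1 in P of A375 (38.7% and 4.86% of all genes in S, 51.6% and 7.36% in P). The deposited counts for Yumm1.7 were 0 higher and 13 lower in S and 35 and 1 in P (6.32% and 25.6% of all genes in S, 46.2% and 2.54% in P). The members most shifted to polysomes in A375 P were DNMT1 (3.17), HDAC2 (3.04), KDM5C (2.52) and KDM1A (2.21), and in A375 S KDM5C (2.08), HDAC6 (1.999) and HDAC2 (1.97). In Yumm1.7 P they were Dnmt1 (1.86), Kdm1a (1.68) and Setd2 (1.34). DNMT1, HDAC1, HDAC2, KDM1A, KDM5C, SETD1A, SETD2 and SETDB1 were past 2-fold in P of both lines, 8 of 55 members (14.5%), where 9.81% of shared genes were. None was lower in P of both (4.26% of shared genes), none was higher in S of both (6.44%), and HDAC4 was lower in S of both (2.43%). At the other end were SETD9 in A375 P (-2.06), with 6.52 TPM in polysomes and 14.1 TPM in monosomes, and Kdm1b (-2.62) and Kmt5a (-1.88) in Yumm1.7 P.

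The S minus P difference of the log2 polysome-to-monosome ratios was lower for more members than it was higher. For some members its direction depended on the denominator. In A375, 3 members were at least 2-fold higher and 9 lower (13.1% and 7.88% of all genes), and in Yumm1.7 3 were higher and 12 lower (17.3% and 12.6%). As deposited, 1 was higher and 19 lower in A375 (7.89% and 16.2%), and 0 were higher and 49 lower in Yumm1.7 (3% and 66.5%). DNMT1 (-1.84 in A375 and -1.59 in Yumm1.7), HDAC2 (-1.16 and -1.60), KDM1A (-1.02 and -1.33) and SETD2 (-1.01 and -1.34) were lower in both lines, 4 of 55 members (7.27%), where 1.61% of shared genes were, and none was higher in both (2.25%). With input in place of monosomes as the denominator, DNMT1 was at 0.87 in A375 and 1.29 in Yumm1.7, and HDAC2 at 0.89 and 0.34, so the direction turned. KDM1A was then at -0.03 in A375 and 0.30 in Yumm1.7. SETD2 turned to 0.82 in A375, while Setd2 stayed lower in Yumm1.7, at -1.26. By that measure 1 A375 member was at least 2-fold higher and none lower (5.87% and 2.48% of all genes), and 3 Yumm1.7 members were higher and 6 lower (11.3% and 8.91% of all genes). The ratio of Kdm6b was lower in Yumm1.7 S with either denominator (-2.19 with monosomes and -1.28 with input). Kmt5a (2.12) was the highest in Yumm1.7 with monosomes as denominator but was at -0.36 with input.

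**Figure D4:**
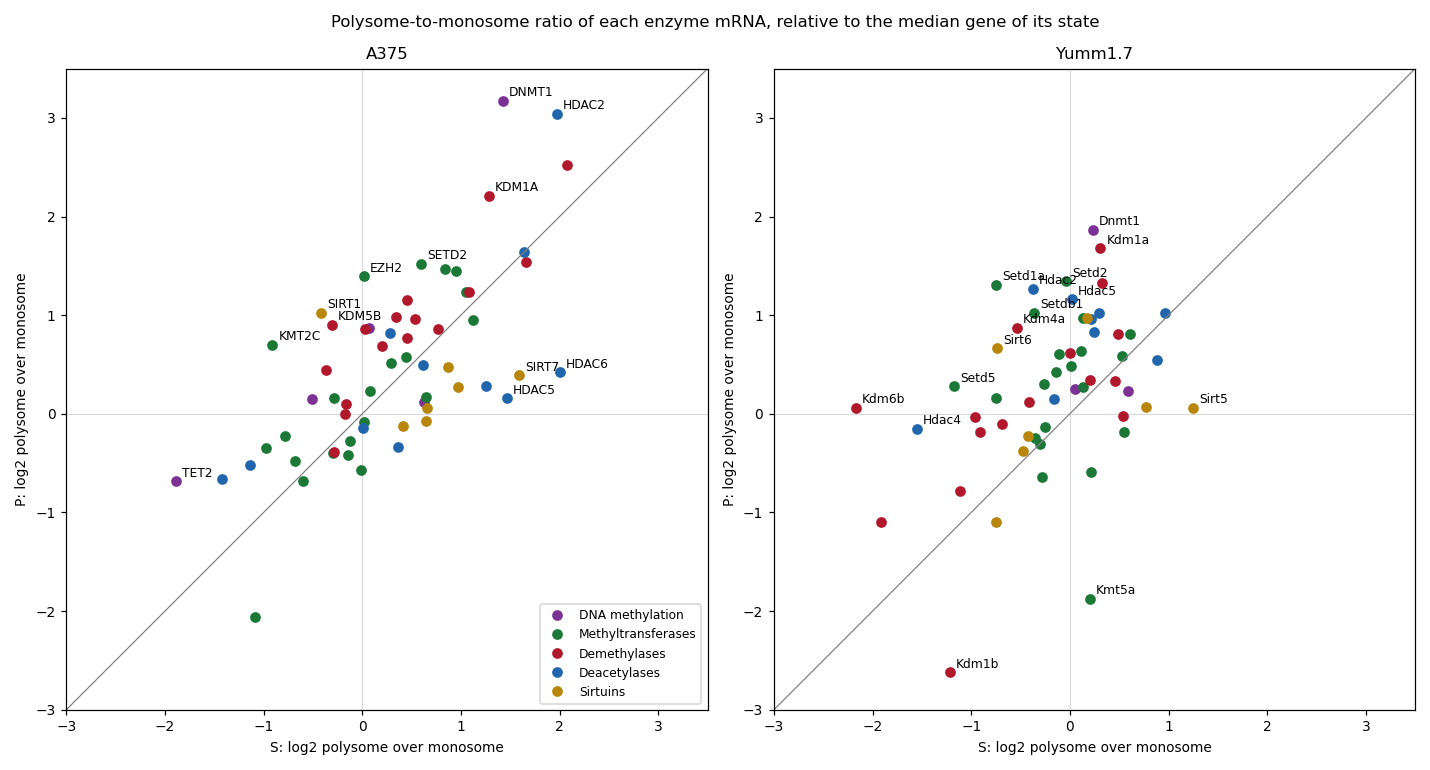
Log2 polysome-to-monosome ratio of each member compared, relative to the median gene of its state, for S on the horizontal and P on the vertical axis, coloured by enzyme class. Named members differ by at least 2-fold between states, and those above the diagonal, such as DNMT1 in both lines, had the higher ratio in P.

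The partners of these enzymes were counted from lists of complexes and cofactors. Of 10 PRC2 partners compared in each line, 5 were at least 2-fold lower and none higher in A375 S input (median -0.85), and 7 were lower and 1 higher in Yumm1.7 (median -1.29), against the shares of all genes given above. EED, the subunit that reads H3K27 methylation, had 6.72 TPM in S and 32.9 TPM in P input of A375 (-1.94), and Eed 1.80 and 23.4 TPM in Yumm1.7 (-2.19). PHF19 (-2.10) and RBBP7 (-1.66) in A375 and Suz12 (-2.32) and Rbbp7 (-1.85) in Yumm1.7 were the others with the largest differences. UHRF1, which guides DNMT1 to hemimethylated DNA, had 4.54 TPM in S and 54.0 TPM in P input of A375 (-3.11), and Uhrf1 was listed at 0 in S and had 40.8 TPM in P input of Yumm1.7 (-4.45). HELLS (-3.35) and Hells (-2.13), a chromatin remodeller needed for DNA methylation, were lower as well. In all, 3 of 10 DNA methylation cofactors were lower and 1 higher in A375 (median -0.47), and 3 of 9 lower and 1 higher in Yumm1.7 (median -0.24). All-gene shares were 16.2% lower and 15.6% higher in A375 input, and 22.3% and 23.1% in Yumm1.7.

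Of the subunits of the H3K4 methyltransferase complexes, 4 of 13 were lower in A375 (median -0.59) and 6 of 11 in Yumm1.7 (median -1.50), with none higher. For this list and those below, all-gene shares were 16.2% lower and 15.6% higher in A375 input, and 22.3% and 23.1% in Yumm1.7. WDR5, a core subunit, had 14.5 TPM in S and 56.4 TPM in P input of A375 (-1.69), and Psip1 had 3.11 and 70.0 TPM in Yumm1.7 (-3.17). HDAC corepressor subunits were near the median gene (2 of 28 lower and none higher in A375, median -0.12, and 5 of 28 lower and 1 higher in Yumm1.7, median -0.01). MTA2 of the NuRD complex was lower in A375 (24.6 TPM in S and 69.9 TPM in P, -1.27), and Chd3, a NuRD remodeller, was higher in Yumm1.7 (196 and 26.8 TPM, 3.76). Of the acetyltransferases, which oppose the deacetylases, 1 of 13 was higher and 1 lower in A375 (median 0.06) and none of 12 higher and 3 lower in Yumm1.7 (median -0.06). KAT2B had 72.8 TPM in S and 20.4 TPM in P input of A375 (1.99). HAT1, which acetylates newly made histones, was lower in both lines (36.1 and 114 TPM in A375, -1.43, and 4.45 and 68.4 TPM in Yumm1.7, -2.74).

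Among methyltransferases outside the rule, 7 of 20 were lower and none higher in A375 (median -0.63), and 7 of 21 were lower and 6 higher in Yumm1.7 (median -0.33). The all-gene shares were again 16.2% lower and 15.6% higher in A375, and 22.3% and 23.1% in Yumm1.7. The H3K36 dimethyltransferase NSD2 had 4.60 TPM in S and 41.0 TPM in P input of A375 (-2.71), and Nsd2 2.87 and 24.2 TPM in Yumm1.7 (-1.76). The H3K9 methyltransferase Ehmt2 was higher in Yumm1.7 (194 and 77.8 TPM, 2.24). A further list held demethylases outside the rule and related proteins, among the latter JARID2, also counted with PRC2. Of these, 1 of 8 was lower in A375 (median -0.40) and 2 of 7 in Yumm1.7 (median -0.13), with none higher. Of the enzymes that make or use the shared cosubstrates, 3 of 11 were lower and 1 higher in A375 (median -0.65) and 5 of 10 lower and 1 higher in Yumm1.7 (median -1.004). MAT2A, which makes the methyl donor S-adenosylmethionine, had 46.2 TPM in S and 330 TPM in P input of A375 (-2.61), whereas Mat2a, at 6.04 and 22.4 TPM in Yumm1.7, was at -0.79.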

How the data were processed

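The deposited values are TPM, made by the authors from poly-T selected RNA libraries per the labels' protocols, in 1 table per line with 6 libraries each. Per the submitters' processing notes the builds were GRCh38 and GRCm38. The sources used here do not name the aligner, quantifier, annotation or strand setting. Both tables hold rows averaging 0.1 TPM or more. TPM keeps no depth, so no counting error is given. The members and lists were chosen with earlier results of these data known.

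Values were compared as log2(TPM + 1), a scale that understates the difference of low genes, for rows with a mean of at least 1 TPM, relative to the median gene compared, and a difference of at least 2-fold was counted. The sign and the call of a low gene thus rest partly on the pseudocount and the centring. In Yumm1.7 input, Dnmt3a was at 0.41 with 0.687 TPM in S and 1.44 TPM in P. Kmt2e was counted within 2-fold, at -0.36, with 0.902 and 3.66 TPM. Named in full were members with a mean of at least 5 TPM past 2-fold in input, polysome or polysome-to-monosome ratio of S against P, and the most abundant member of each class. Of each partner list, up to 3 members with the largest input differences could be named, and JARID2 is in 2 lists. Members below these limits, such as HDAC9 and SIRT4, and the partner Mat2a were named after their values were seen. The calculation was tested on simulated data. Alternatives were another pseudocount, no filter, no centring, another centre and input as the denominator. Python 3.11.15, pandas 2.3.3 and numpy 2.4.6 were used.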

Additional observations from a re-analysis of the deposited data

Results flagged for a closer look

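HDAC5 differed between the lines in its polysome-to-monosome ratio of S against P, at 1.22 for A375 and -1.10 for Yumm1.7 against the median gene. With input as the denominator it was -0.06 in A375 and -0.75 in Yumm1.7. SIRT1 lay on opposite sides of the median gene in its polysome-to-monosome ratio in P, at 1.03 in A375 and -1.10 in Yumm1.7, with 19.2 TPM in polysomes and 3.78 TPM in monosomes of A375 P and 9.59 and 11.0 TPM in Yumm1.7 P. With 1 library per group, neither difference between the lines was tested.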

How the results depend on the processing

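No paired analysis was possible because each group has 1 library and carries no replicate number. Of 84 alternative counts of members, 53 stayed within 1.5 times the reported count. Of 819 alternative values of named members 670 moved by less than 1.5-fold, 133 moved by more, and 16 that had been past 2-fold turned in direction. The 670 include every value without a filter or with another centre. Those settings shift all genes of a comparison alike, so they do not test single genes. Without centring, also a common shift, 77 moved by less, 116 by more and 2 turned. With input as the denominator these were 13, 13 and 13, and with a pseudocount of 0.1 TPM 190, 4 and 1.

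On the TPM as deposited, A375 members counted 4 higher and 7 lower in input, 6 and 12 in polysomes, 31 and 1 for polysome against monosome in S, 43 and 1 in P, and 1 and 19 for the ratio of S against P. Yumm1.7 members counted 3 and 30, 2 and 44, 0 and 13, 35 and 1, and 0 and 49 in the same order, and Sirt3 (-0.35) and Sirt6 (-0.42) turned in polysomes. Without a filter, 25 members were higher for polysome against monosome in A375 P, 24 lower in Yumm1.7 polysomes, and 17 higher and 2 lower for polysome against monosome in Yumm1.7 P. With a pseudocount of 0.1 TPM, 21 were lower in Yumm1.7 polysomes, 4 higher and 11 lower for polysome against monosome in Yumm1.7 S, and 21 lower for the Yumm1.7 ratio, where Kdm1b turned to -0.24. Centred on genes averaging 10 TPM or more, polysome against monosome gave 8 higher and 8 lower in A375 S, 4 lower in A375 P and 6 higher in Yumm1.7 P. The share of all genes was not taken for the filter, pseudocount and centre settings. Those counts therefore do not show whether the members changed more than all genes did.

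With input as the denominator, the ratio of S against P was higher for 1 and lower for 0 members in A375 and lower for 6 in Yumm1.7. The direction then turned for DNMT1 (0.87), EZH2 (0.65), HDAC2 (0.89), HDAC5 (-0.0623), KDM5B (0.041), KMT2C (0.28) and SETD2 (0.82) in A375. In Yumm1.7 it turned for Dnmt1 (1.29), Hdac2 (0.34), Kdm1a (0.30), Kdm4a (0.65), Kmt5a (-0.36) and Sirt6 (0.054). The cause was not tested. Depth is unknown, so no limit on low values can be given.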
